A study of Homo sapiens with 17 samples.

Results

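The 35 genes described here encode components of the WNT pathway, from the secreted ligands to the transcription factors that carry the signal in the nucleus. They were taken by name, and a region was assigned to a gene if it overlapped the gene's annotated RefSeq span (GRCh38.p14) extended by 25 kb on each side. All 35 were found among 20037 protein-coding genes, and the other 20002 served as the comparison. The assay was CUT&RUN, in which an antibody directs a nuclease to a chromatin protein in nuclei and the released DNA is sequenced. The cells were Nthy-ORI, an immortalised human line derived from normal thyroid epithelium, so the data stand for 1 line. The antibodies were to thyroid hormone receptor beta (TRβ), to BRG1, the ATPase of the SWI/SNF chromatin remodelers, to ARID1A, a subunit of the BAF form, and to PBRM1, a subunit of the PBAF form. Every group had first been kept without hormone for 24 h in medium with charcoal-stripped serum. The T3 groups then received 10 nM triiodothyronine and the vehicle groups received NaOH. The label of each library gives 6 h of treatment, although the protocol text in the labels names a longer one too. Nuclei came from 500000 cells.

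In the canonical WNT pathway a secreted WNT protein, matured by the acyltransferase PORCN, binds a Frizzled receptor together with LRP5 or LRP6. Dishevelled proteins then restrain the destruction complex of AXIN, APC and GSK3, so that beta-catenin (CTNNB1) accumulates and joins TCF and LEF factors on DNA. DKK1 and SFRP1 block the pathway outside the cell, and the ubiquitin ligases RNF43 and ZNRF3 remove Frizzled receptors from the surface. TRβ is a nuclear receptor that binds DNA with and without its ligand T3, often at pairs of the half-site AGGTCA, and BAF and PBAF use ATP to move nucleosomes.

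Each of the 8 combinations of 4 antibodies and 2 conditions had 2 libraries but 1 deposited list, which held only peaks that recurred in both. Differences between T3 and vehicle lists therefore have no replicate check, and no test was made. Nothing in the labels says that the libraries came from separate cultures. The lists held 7208 TRβ regions with T3 and 1412 with vehicle, 55938 and 64299 BRG1 regions, 41710 and 49021 ARID1A regions, and 38140 and 9115 PBRM1 regions. Read depth is unknown, so a region missing from a list was not listed, which is not the same as not bound. A region is called shared if at least 1 bp of it overlapped a region of the same protein in the other condition, and otherwise T3-only or vehicle-only. Because the TRβ and PBRM1 T3 lists were several times as long as their vehicle lists, a large T3-only share can follow from length alone at any set of genes, and the counts over the 35 genes are given with the share of all genes. The windows of the WNT genes had a median length of 89.5 kb (52.3 to 323 kb), against 74.1 kb for the other genes.

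Of the 35 genes, 24 had a promoter in the RefSeq table of GRCh38.p14, with 32 promoters of 300 bases, 250 before and 50 after an annotated start. A TRβ T3 region overlapped 7 of these 32 promoters, those of AXIN1, TCF7L1, DKK1, GSK3B, FZD4, GSK3A and FZD5. The sequences of the first 4 by the authors' TRβ signal value are shown because they are the places where receptor regions met a WNT gene start. Each is written 5′ to 3′ on the strand of its gene, with the start after the first 250 bases, and capitals mark matches of CTTTGA, a core of TCF and LEF sites, on either strand. AXIN1 lies at chr16:352674-352973 on the minus strand, TCF7L1 at chr2:85133142-85133441 on the plus strand, DKK1 at chr10:52314031-52314330 on the plus strand, and GSK3B at chr3:120094398-120094697 on the minus strand.
AXIN1: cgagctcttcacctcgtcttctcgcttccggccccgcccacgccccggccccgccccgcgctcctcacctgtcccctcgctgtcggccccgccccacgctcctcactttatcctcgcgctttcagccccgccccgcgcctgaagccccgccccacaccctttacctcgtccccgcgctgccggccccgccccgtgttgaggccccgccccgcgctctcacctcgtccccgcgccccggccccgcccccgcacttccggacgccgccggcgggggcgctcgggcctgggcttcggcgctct
TCF7L1: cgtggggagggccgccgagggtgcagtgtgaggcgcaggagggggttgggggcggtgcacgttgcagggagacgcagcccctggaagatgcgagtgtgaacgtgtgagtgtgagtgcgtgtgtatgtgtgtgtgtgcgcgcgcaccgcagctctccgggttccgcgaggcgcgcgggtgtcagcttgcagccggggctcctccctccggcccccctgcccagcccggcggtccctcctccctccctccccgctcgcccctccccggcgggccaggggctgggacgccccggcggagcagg
DKK1: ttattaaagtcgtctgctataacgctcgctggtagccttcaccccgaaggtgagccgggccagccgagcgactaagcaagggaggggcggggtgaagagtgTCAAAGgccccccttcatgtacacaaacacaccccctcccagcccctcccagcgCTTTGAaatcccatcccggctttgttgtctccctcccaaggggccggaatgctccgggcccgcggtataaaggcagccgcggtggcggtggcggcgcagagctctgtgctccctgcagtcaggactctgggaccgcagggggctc
GSK3B: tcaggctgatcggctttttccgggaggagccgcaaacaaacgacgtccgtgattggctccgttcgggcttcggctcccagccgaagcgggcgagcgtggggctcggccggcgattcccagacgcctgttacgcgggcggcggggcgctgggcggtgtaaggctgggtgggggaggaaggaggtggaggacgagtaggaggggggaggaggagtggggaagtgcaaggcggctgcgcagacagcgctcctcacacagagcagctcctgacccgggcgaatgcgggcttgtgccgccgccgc
The AXIN1 promoter was the richest of these in G and C (78.0%), followed by TCF7L1 (74.3%), GSK3B (69.3%) and DKK1 (63.7%), where all 22199 protein-coding promoters had 60.9%. None of the 4 holds the half-site AGGTCA on either strand. That half-site was present in 3 of the 32 WNT promoters (9.38%), 1 each of PORCN, TCF7 and TCF7L2, against 11.9% of all promoters. A pair of such half-sites in the same direction with 4 bases between them was in none of the 32, and in 2 of 22199 overall. The core CTTTGA, sought on both strands, was in 2 of the 32 (6.25%), DKK1 with 2 matches and PORCN with 1, against 10.9% of all. A match or its absence describes the letters of this window only.

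TRβ was listed at 19 of the 35 WNT genes with T3 (54.3%; 39.3% of all 20037 genes) and at 5 with vehicle (14.3%; 11.1% of all). The T3 regions numbered 33, and 30 of them were T3-only (90.9%, exact 95% interval 75.7 to 98.1), a share close to the 92.8% at other genes. All 19 genes had a T3-only region (37.7% of all genes had one), and 3 also had a shared one (5.22% of all). Of the 5 vehicle regions, 2 were vehicle-only, at 2 genes (6.81% of all genes). The intervals here and below cover counting error only. Per 100 kb of window the WNT genes held 0.846 TRβ T3 regions and the other genes 0.615, while the vehicle figures were 0.128 and 0.117. DVL2 alone held 7 of the 33 T3 regions, in a window of 59.2 kb. The density without DVL2 was not calculated.

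The excess over other genes changed with how far down the T3 list regions were taken, and with the window. With the T3 list held to its 1412 regions of highest signal value, as many as with vehicle, 5 WNT genes had a T3 region (14.3%), against 14% of other genes. These 5 were FZD7, ZNRF3, TCF7L2, WNT7B and AXIN1. At an irreproducible discovery rate (IDR, the authors' measure of agreement between the 2 libraries) of at most 0.01, 13 WNT genes had a T3 region (37.1%), against 25.4% of other genes. The signal value is the authors' own peak score summed over both libraries, and it is used here only to order regions within a list. At the WNT genes it ran from 8.46 to 17.9 in the T3 list and from 9.74 to 23.7 in the vehicle list. No WNT region was among the strongest of the T3 list, the best being rank 461 of 7208, at FZD7.

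**Figure D1:**
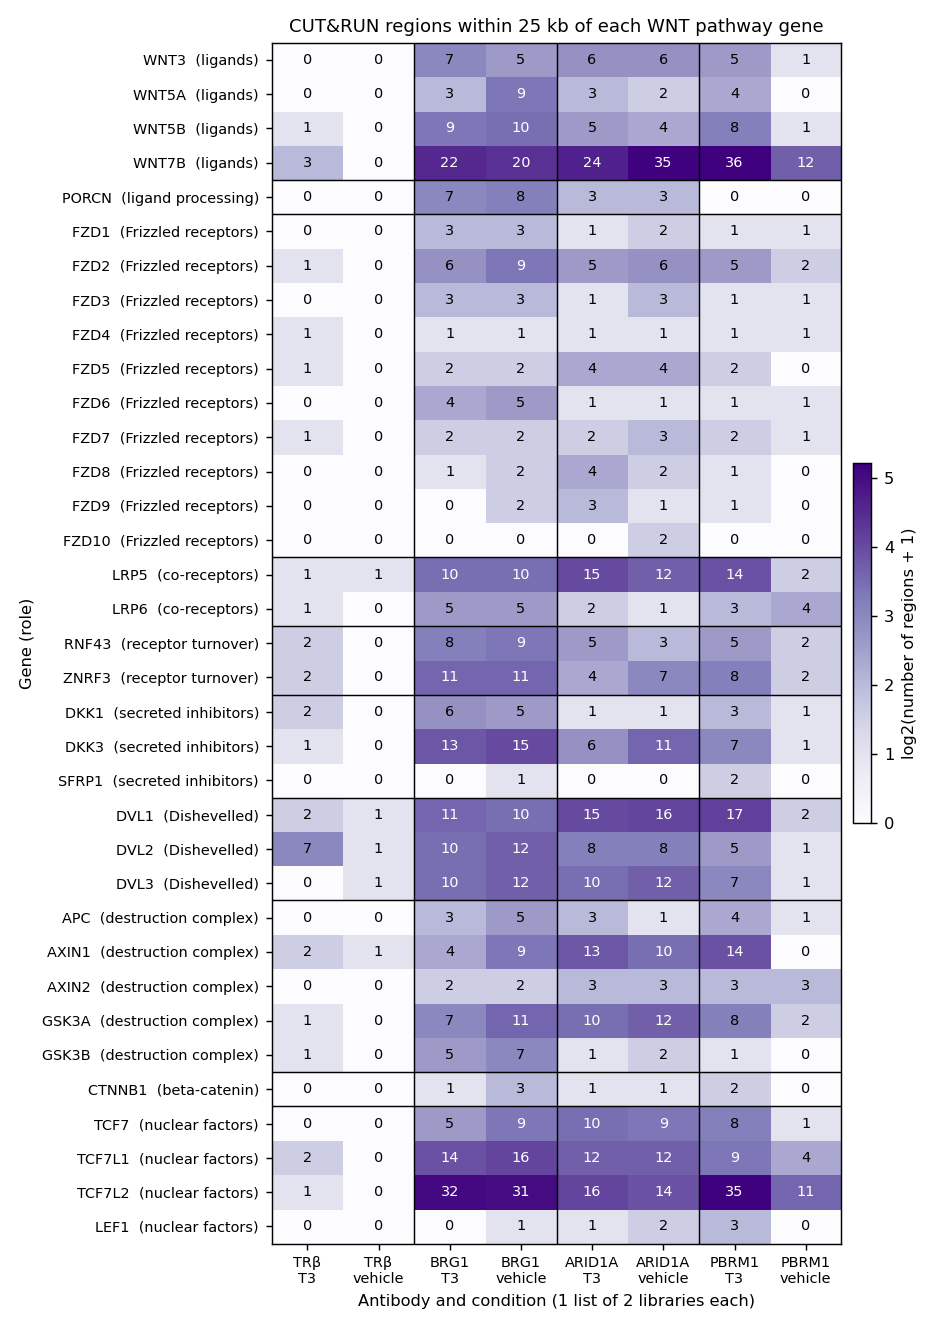
Number of listed regions within 25 kb of each of the 35 WNT genes (rows, grouped by role) in the T3 and vehicle list of each antibody (columns); colour is log2(number + 1) and the printed digits are the counts. TRβ columns are mostly 0 with vehicle, and WNT7B and TCF7L2 stand out in the PBRM1 T3 column with 36 and 35 regions.

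Among the ligands, TRβ was listed at WNT5B and WNT7B and not at WNT3 or WNT5A, in either condition. WNT7B had 3 T3 regions and none with vehicle. The highest lay inside the gene at chr22:45968302-45969551, 8.24 kb from its nearer end, with a signal value of 14.2 (5.19 and 9.05 in the 2 libraries). The other 2, with signal values of 9.38 and 9.42, lay in the flanks 14.9 and 18.4 kb from the nearer end of the gene. The single WNT5B region was also in the flank, 11 kb from the gene at chr12:1605632-1606396, with 9.09 (5.84 and 3.26). PORCN, which adds the lipid that WNT ligands need for secretion, had no TRβ region.

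Of the 10 Frizzled receptor genes, 4 had a TRβ T3 region (40.0%; 39.3% of all genes) and none a vehicle region (11.1% of all), so the T3 share was that of genes in general. All 4 of these regions crossed or touched an end of the annotated gene. FZD7 had the highest at chr2:202032655-202034126, with 17.9 (11.5 and 6.38). FZD4 had 9.87 (3.91 and 5.96) at chr11:86955372-86956014, FZD2 had 9.04 (3.45 and 5.59) at chr17:44557095-44557773, and FZD5 had 8.62 (4.08 and 4.54) at chr2:207769466-207770310. The region of FZD7 was thus carried more by its first library and those of FZD2 and FZD4 more by their second. FZD1, FZD3, FZD6, FZD8, FZD9 and FZD10 had no TRβ region in either list. At the co-receptor LRP6 the T3 region (chr12:12266100-12267305 with 10.6, from 5.15 and 5.48) lay across a gene end. At LRP5 the T3 region (chr11:68409469-68410434 with 10.9, from 6.93 and 4.0) and the vehicle region (chr11:68431523-68432052 with 9.74, from 4.88 and 4.87) were different places deep in the gene, 39.3 and 17.5 kb from its nearer end.

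The receptor-removing ligases and, apart from SFRP1, the secreted inhibitors had TRβ regions in the T3 list and none with vehicle. ZNRF3 had the second-highest TRβ T3 region of the set, across a gene end at chr22:28882795-28883598, with 15.9 (8.60 and 7.34). A weaker one (8.88) lay 15.9 kb beyond the gene inside C22orf31 and KREMEN1, the second of which encodes a receptor for DKK proteins. RNF43 had 1 region inside the gene (chr17:58369265-58370115 with 10.8, from 7.64 and 3.18) and 1 in the flank (10.6, from 7.35 and 3.26), both carried mainly by the first library. DKK1, a secreted antagonist of LRP5 and LRP6, had a region over its start (chr10:52313953-52315073 with 10.4, from 3.77 and 6.67) and another 1.64 kb past the other end (chr10:52318950-52319644 with 10.7, from 5.41 and 5.26). DKK3, a more distant member of the DKK family, had 1 region at a gene end (chr11:12008808-12009537 with 9.54, from 4.66 and 4.88). SFRP1, a secreted WNT-binding protein, had none in either list.

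The 3 Dishevelled genes, which pass the signal from receptor to destruction complex, all had a vehicle region (11.1% of all genes), and they held 3 of the 5 vehicle regions at WNT genes. DVL1 had 2 T3 regions inside the gene, 1 at chr1:1347752-1348604 with 12.6 (3.22 and 9.37) and 1 at chr1:1344920-1345886 with 12 (4.69 and 7.33). The second of these overlapped the vehicle region (chr1:1344776-1345964 with 11.1, from 5.37 and 5.73), and the first was T3-only. DVL3 had a vehicle-only region 12.4 kb from the gene (chr3:184185819-184186198 with 10.6, from 5.35 and 5.29) and no T3 region.

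DVL2 had 7 TRβ T3 regions, the most of any WNT gene, and only 44 of the 20037 genes had more per 100 kb of window than its 11.8. None of the 7 was inside DVL2 itself. They lay inside the neighbouring genes DLG4 and ACADVL on one side and PHF23 and GABARAP on the other, and the highest was chr17:7241866-7243004 with 12.8 (6.40 and 6.44). The nearest to the gene had its midpoint 1.33 kb from it. The vehicle region (chr17:7239156-7239837 with 9.80, from 4.92 and 4.88) met the weakest of the 7, of 8.46, and was the one vehicle region at a WNT gene that overlapped a region in every one of the 8 lists. Without DVL2, 26 TRβ T3 regions remained at 18 of 34 genes.

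In the destruction complex, AXIN1, GSK3A and GSK3B had TRβ regions with T3, and APC and AXIN2 had none in either list. AXIN1, a scaffold of the complex, had the highest-ranked vehicle region of the set, across the gene end at chr16:351837-353411, with 23.7 (12.2 and 11.4; rank 69 of 1412). The T3 region there (chr16:352724-353209) had 13.4 (9.66 and 3.71; rank 1325 of 7208). Signal values cannot be set against each other between lists. A second T3 region of AXIN1 (chr16:284090-284548 with 11.8, from 7.17 and 4.58) lay in the flank inside PDIA2. The kinase genes GSK3B (chr3:120094540-120095093 with 10.1, from 5.15 and 4.97) and GSK3A (chr19:42242581-42243174 with 9.85, from 6.62 and 3.22) each had 1 T3-only region at a gene end. CTNNB1, the gene of beta-catenin itself, had none.

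Of the nuclear factors that beta-catenin joins, TCF7L2 and TCF7L1 had TRβ regions with T3, and TCF7 and LEF1 had none in either list. The TCF7L2 region lay deep in the gene, 93.9 kb from its nearer end, at chr10:113073479-113074070 with 14.9 (9.48 and 5.42). TCF7L1 had 1 region over its start (chr2:85132637-85133580 with 12.9, from 6.17 and 6.72) and a weaker one, of 9.82, in the flank 5.80 kb from the gene. Counting every role, 11 WNT genes had 1 TRβ T3 region, 6 had 2, WNT7B had 3 and DVL2 had 7, and 15 had no TRβ region in either list.

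**Figure D2:**
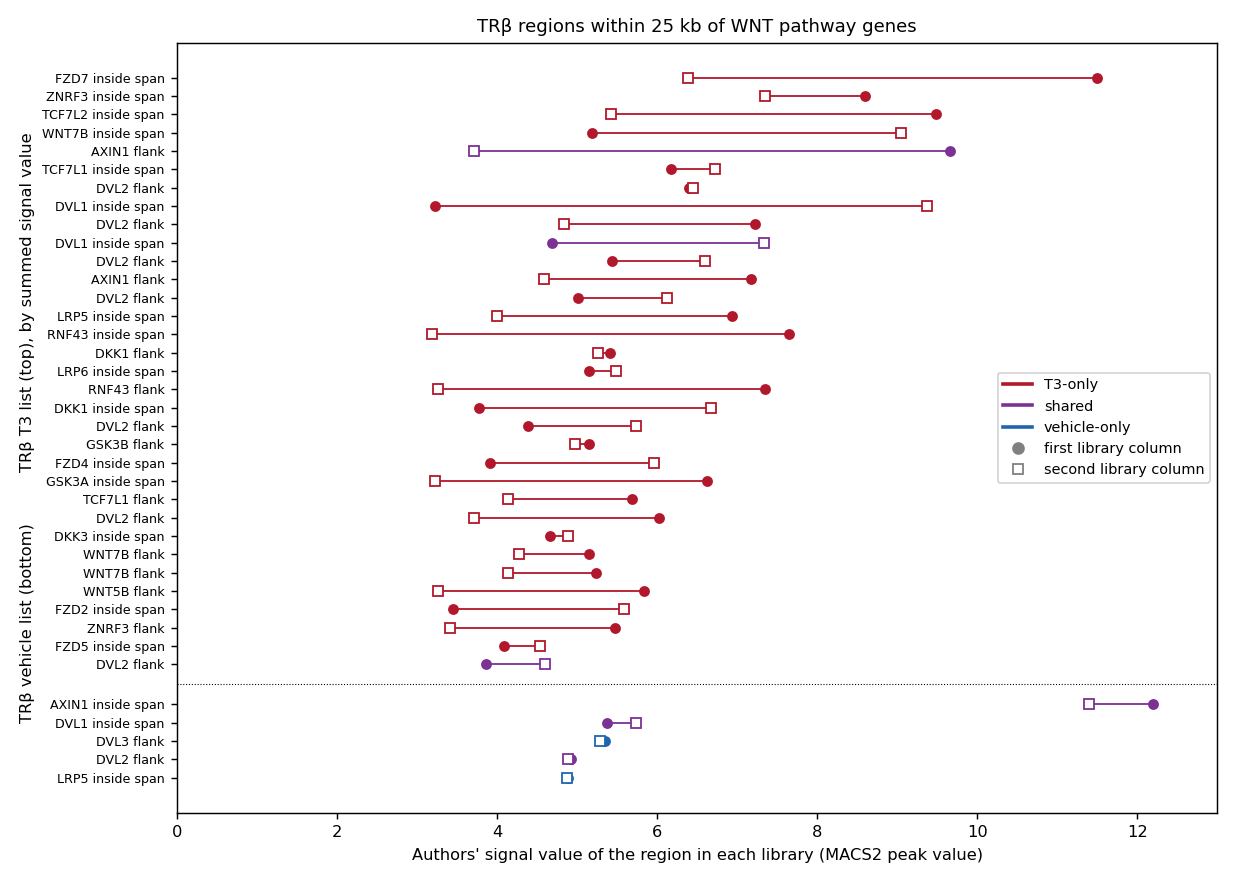
Signal value in the first (circles) and second (squares) library column of each TRβ region at a WNT gene, in the T3 list (top, by summed value) and the vehicle list (bottom); the horizontal axis is the authors' value per library, colour is the class, and "flank" means outside the gene span. The 2 values of a region lie farthest apart for DVL1 (3.22 and 9.37), AXIN1 (9.66 and 3.71) and FZD7 (11.5 and 6.38) with T3.

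TRβ regions at WNT genes fell often at the edges of genes. Within 1 kb of either annotated end, 14 of the 35 WNT genes had a TRβ T3 region (40.0%; 18.1% of all genes), and 1, AXIN1, had a vehicle region (2.86%; 3.33% of all). This distance was chosen after the regions had been seen. The 14 were FZD2, FZD4, FZD5, FZD7, LRP6, ZNRF3, DKK1, DKK3, DVL1, DVL2, AXIN1, GSK3A, GSK3B and TCF7L1. Only the end regions of FZD7, ZNRF3 and AXIN1 (ranks 461, 685 and 1325) were among the 1412 T3 regions of highest signal value. The shares at gene ends were not taken with lists of equal length, so their T3 and vehicle values come from lists of unlike length. Remodelers were also frequent at gene ends. BRG1 was listed at an end of 27 WNT genes with T3 and 30 with vehicle (59.1% and 63.1% of all genes), ARID1A at 26 and 27 (53.4% and 52.4%), and PBRM1 at 30 and 12 (59.5% and 21.9%). Among genes that had a BRG1 T3 region at an end, 14 of 27 WNT genes (51.9%) also had TRβ there with T3, against 29.3% of all 11841 such genes. Among those with a PBRM1 T3 region at an end the count was 13 of 30 (43.3%), against 28.2% of all 11922. Of the 24 TRβ T3 regions at WNT genes with a known start, 7 had their midpoint within 1 kb of it. The same count was not made at other genes, so whether 7 of 24 is usual is unknown.

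**Figure D3:**
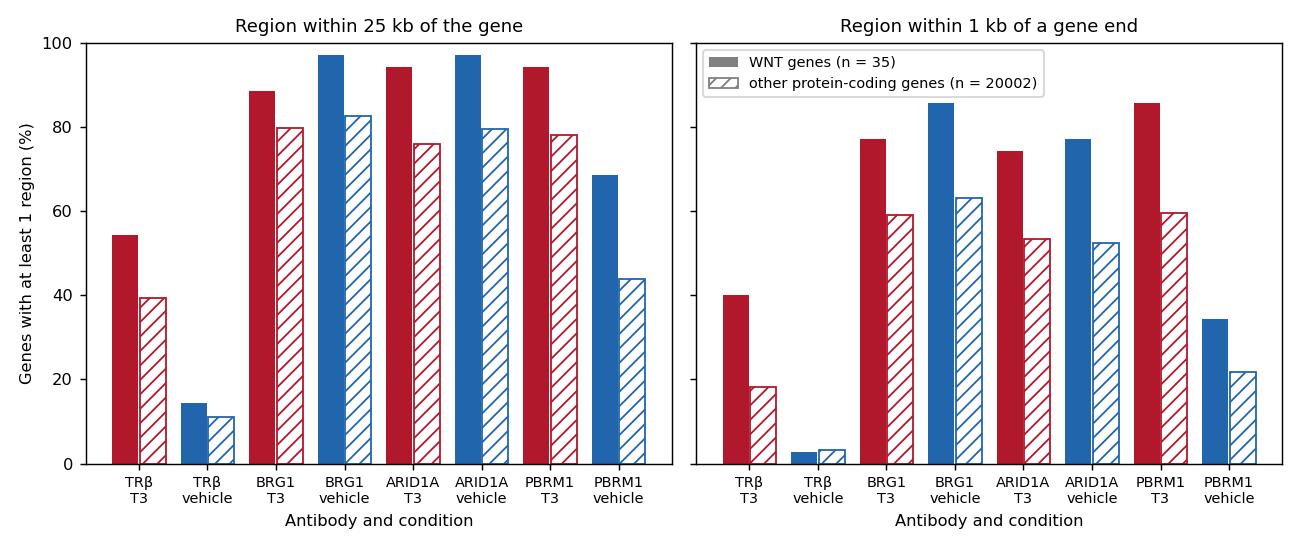
Share of genes (%) with at least 1 region within 25 kb of the gene (left) or within 1 kb of a gene end (right), for 35 WNT genes (filled bars) and 20002 other protein-coding genes (hatched bars), in the T3 (red) and vehicle (blue) list of each antibody. At gene ends the TRβ T3 bar is 40.0% for WNT genes and 18.1% for other genes, and the TRβ vehicle bars are 2.86% and 3.33%. The TRβ lists held 7208 regions with T3 and 1412 with vehicle.

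Most TRβ T3 regions at WNT genes sat where remodelers were listed too. Of the 33, 28 overlapped a BRG1 region of the T3 list (84.8%, 68.1 to 94.9; 72.9% at other genes), 24 an ARID1A region (72.7%, 54.5 to 86.7; 70.5%) and 25 a PBRM1 region (75.8%, 57.7 to 88.9; 67.1%). All 3 remodeler subunits were listed at 23 of them (69.7%, 51.3 to 84.4; 58.2%) and none of the 3 at 4 (12.1%, 3.4 to 28.2; 20.0%). For each of these the value at other genes lay within the interval of the WNT genes. The 4 bare regions were 1 each at LRP5, RNF43, AXIN1 (the one in PDIA2) and TCF7L1 (the one in its flank), and these overlapped no remodeler region with vehicle either.

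At these places BRG1 was mostly listed without hormone as well. A BRG1 vehicle region overlapped 26 of the 33 TRβ T3 regions (78.8%; 75.1% at other genes), and 23 of the 30 that were T3-only. ARID1A was listed with vehicle at 20 (60.6%; 68.8%). PBRM1 was listed with vehicle at 11 (33.3%, 18 to 51.8; 24.9%), and 14 of the 33 overlapped PBRM1 in the T3 list and not in the vehicle list (42.4%, 25.5 to 60.8; 43.6%). All 14 TRβ T3 regions at gene ends overlapped BRG1 with vehicle and PBRM1 with T3, 13 overlapped all 3 subunits with T3, and 7 overlapped PBRM1 with vehicle. Counted by gene, 3451 of the 3620 other genes with a TRβ T3 region at an end also had a BRG1 T3 region at one. A PBRM1 T3 region lay at an end of 3349 of them, so remodelers at such ends were common at genes in general. Of the 19 TRβ T3 regions of WNT genes away from gene ends, 12 overlapped BRG1 with vehicle, 11 PBRM1 with T3, 10 all 3 subunits with T3 and 4 PBRM1 with vehicle. Overlaps of single regions at and away from ends were not counted at other genes. Whether this contrast is particular to WNT genes is therefore unknown, and the distance behind it was chosen after the regions were seen. At an end of FZD7 the TRβ region lay within a shared PBRM1 region (chr2:202031972-202036316, signal value 44.2, rank 108 of 38140 in the PBRM1 T3 list). At DVL1 both TRβ T3 regions lay within 1 PBRM1 T3-only region of 39.0 (12.4 and 26.6; rank 211), the highest T3-only PBRM1 region at any WNT gene.

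BRG1 was listed at 31 WNT genes with T3 (88.6%; 79.8% of all genes) and at 34 with vehicle (97.1%; 82.8% of all). The WNT genes held 227 BRG1 regions with T3 and 265 with vehicle, or 5.82 and 6.79 per 100 kb of window, against 3.52 and 4.05 at other genes. Shared regions lay at 31 WNT genes (77.1% of all genes), T3-only regions at 19 (44.3%) and vehicle-only regions at 28 (57.7%). Vehicle-only regions outnumbered T3-only ones at 18 genes (39.3% of all genes), were equal in number at 13 and were fewer at 4 (18.5% of all genes). The T3-only share was 20.7% (15.6 to 26.6; 22.6% at other genes) and the vehicle-only share 27.9% (22.6 to 33.7; 28.7%). BRG1 at the WNT genes was thus denser than at other genes, and its division between conditions was close to theirs.

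By density with T3, BRG1 was highest at WNT7B (20.6 regions per 100 kb), DVL1 (17.1), DVL2 (16.9), DVL3 (14.7) and DKK3 (13.4). It was lowest at FZD9, FZD10, SFRP1 and LEF1, which had 0 regions with T3, and CTNNB1, which had 1 with T3 and 3 with vehicle. With vehicle FZD9 had 2 regions, SFRP1 and LEF1 had 1 each and FZD10 had 0. The strongest BRG1 T3 region at a WNT gene was shared and lay across the start of TCF7L2 (chr10:112949491-112961479 with 71.8, from 53.0 and 18.7; rank 36 of 55938). The TRβ region of TCF7L2 lay within another shared BRG1 region, the highest at a WNT gene in the vehicle list (chr10:113072058-113075212 with 69.4, from 45.0 and 24.4; rank 99 of 64299).

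The BRG1 regions listed in 1 condition stood lower in their lists than these shared ones. The 5 highest T3-only ones were at DVL2 (chr17:7240126-7241831 with 20.1), WNT7B (chr22:45976833-45978429 with 16.3), FZD6 (12.2), TCF7L2 (chr10:113025977-113027433 with 12) and WNT3 (chr17:46841590-46842051 with 11.4). The best of these, over PHF23 and GABARAP in the DVL2 window, held rank 9106 of 55938. The 5 highest vehicle-only ones were at WNT5B (chr12:1602236-1603000 with 19.8), DVL1 (chr1:1318326-1318632, inside INTS11, with 19.1), DVL2 (chr17:7236354-7237300, inside PHF23, with 18.3), TCF7L2 (chr10:112981661-112982016 with 14.5) and GSK3A (chr19:42249930-42250822, inside ERF, with 12.9), the first at rank 13440 of 64299. DVL2 and TCF7L2 thus had regions on both sides of the comparison.

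ARID1A was listed at 33 WNT genes with T3 (94.3%; 76.0% of all genes) and 34 with vehicle (97.1%; 79.5% of all). Its regions numbered 199 with T3 and 212 with vehicle, or 5.1 and 5.44 per 100 kb, against 2.98 and 3.32 at other genes. T3-only regions were at 24 WNT genes (54.8% of all genes), vehicle-only regions also at 24 (63.2%) and shared regions at 31 (65.1%). T3-only regions outnumbered vehicle-only ones at 12 genes (26.7% of all genes), the reverse held at 12 (38.8% of all), and the numbers were equal at 11. The T3-only share was 40.7% (33.8 to 47.9; 45.5% at other genes). The vehicle-only share was 39.2% (32.5 to 46.1), below the 49.5% at other genes and with an interval that did not reach it. Leaving out WNT7B, TCF7L2 and DVL2 gave 39.4% (31.6 to 47.5).

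The ARID1A density with T3 was highest at DVL1 (23.4 regions per 100 kb), WNT7B (22.5), GSK3A (16.0), DVL3 (14.7) and DVL2 (13.5). It was 0 at FZD10 and SFRP1, 0.309 at GSK3B, 0.583 at LEF1 and 0.769 at FZD3. SFRP1 had no ARID1A region with vehicle either, whereas FZD10 had 2 vehicle-only ones, which were its only regions in any of the 8 lists. WNT7B had more ARID1A regions with vehicle (24 with T3, 35 with vehicle), DKK3 too (6 and 11), and AXIN1 (13 and 10) and LRP5 (15 and 12) had more with T3. The highest T3-only regions were at TCF7L2 (chr10:113070850-113072034 with 19.4), FZD9 (chr7:73409784-73411230 with 19), GSK3A (chr19:42207770-42209032, inside DEDD2, with 17.7), TCF7 (chr5:134140721-134141858 with 15.8) and TCF7L1 (chr2:85312180-85312657 with 14.6). The highest vehicle-only ones were at AXIN2 (chr17:65583390-65584588 with 16.6), TCF7L1 (chr2:85244571-85245819 with 16.3), AXIN1 (chr16:341913-343142 with 14.3), RNF43 (chr17:58372358-58373336 with 14.1) and DKK3 (chr11:11979238-11980130 with 14.1).

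PBRM1 had the most unequal lists of the remodelers. It was listed at 33 WNT genes with T3 (94.3%; 78.1% of all genes) and 24 with vehicle (68.6%; 44.0% of all). The WNT genes held 226 PBRM1 regions with T3 and 59 with vehicle, or 5.79 and 1.51 per 100 kb, against 2.74 and 0.65 at other genes. T3-only regions were at 28 WNT genes (80.0%; 70.8% of all), shared ones at 24 (38.5% of all) and vehicle-only ones at 5 (13.4% of all). More regions were T3-only than vehicle-only at 26 of the 35 (68.8% of all genes), fewer at 2, LRP6 and AXIN2 (1.32% of all), and equal at 7. Per 100 kb of pooled window, then, the WNT genes were denser in PBRM1 than other genes in both conditions. WNT7B and TCF7L2 weighed on this, with 31.4% of the T3 and 39.0% of the vehicle regions. The median density over genes was 3.66 with T3 and 1.11 with vehicle, against 1.9 and 0 at other genes.

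The T3-only share of PBRM1 regions was 71.7% (162 of 226; 65.3 to 77.5), below the 78.3% at other genes and with an interval that did not reach it. The vehicle-only share was 16.9% (10 of 59; 8.44 to 29.0), against 23.6%. Outside WNT7B and TCF7L2, which together held 71 of the 226 T3 regions (31.4%), the T3-only share was 73.5% (65.9 to 80.3), an interval that includes the 78.3%. Leaving out WNT7B alone was enough for this (73.2%, 66.3 to 79.3). The share itself rose little and stayed below 78.3%, and the interval then rested on 190 regions in place of 226. With both lists held to equal length the T3-only share was 53.3% and the vehicle-only share 57.6%, which were then nearly alike.

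**Figure D4:**
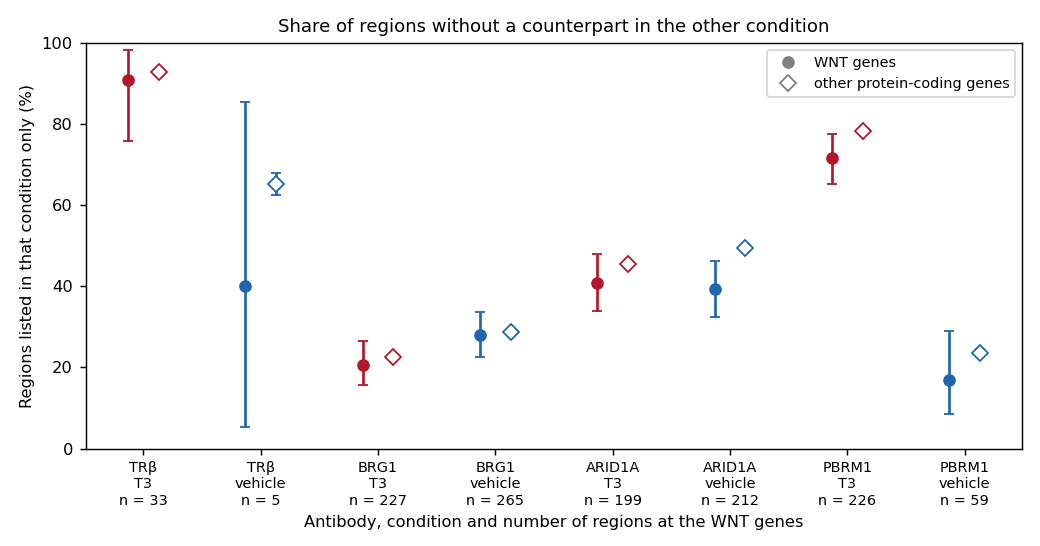
Share (%) of the regions of each list that had no counterpart in the other condition, at the WNT genes (filled circles, n below the axis) and at other protein-coding genes (open diamonds), for T3 (red) and vehicle (blue); bars are exact 95% intervals. The circles lie below the diamonds in every list, and the WNT interval misses the diamond for ARID1A with vehicle (39.2% and 49.5%) and PBRM1 with T3 (71.7% and 78.3%), for PBRM1 only while WNT7B is included.

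WNT7B, a WNT ligand gene, was the most PBRM1-dense gene of the set. It had 36 PBRM1 regions with T3 and 12 with vehicle, or 33.7 and 11.2 per 100 kb, and only 6 and 9 of the 20037 genes had more. No other protein-coding gene lay in its window. Of the 36, 23 were T3-only, the strongest at chr22:45929890-45932652 (29.1, from 13.9 and 15.2) and chr22:45961439-45963237 (28.4, from 15.4 and 13). The strongest of all was shared, at chr22:45975211-45979415 across a gene end (49.5, from 28.6 and 21.0; rank 56 of 38140). Its BRG1 regions numbered 22 with T3 and 20 with vehicle.

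TCF7L2, next by number of regions, had 35 PBRM1 regions with T3 and 11 with vehicle, 25 of the 35 T3-only, where BRG1 had 32 and 31 regions. Over its 267 kb window this was 13.1 per 100 kb with T3, and 1144 of the 20037 genes had a higher density. The highest T3-only region was near its start at chr10:112950712-112954433 (28.5, from 16.0 and 12.5). Further densities with T3 were 26.5 per 100 kb at DVL1 (17 regions, 2 with vehicle), 12.8 at GSK3A (8, and 2 with vehicle) and 12.1 at AXIN1 (14, and 0 with vehicle). For DVL1 only 45 genes had a higher density, and 6 other protein-coding genes shared its window. The ZNRF3 region at the gene end (chr22:28882837-28885280 with 29.0, from 17.7 and 11.3) was T3-only too and overlapped the TRβ region there.

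**Figure D5:**
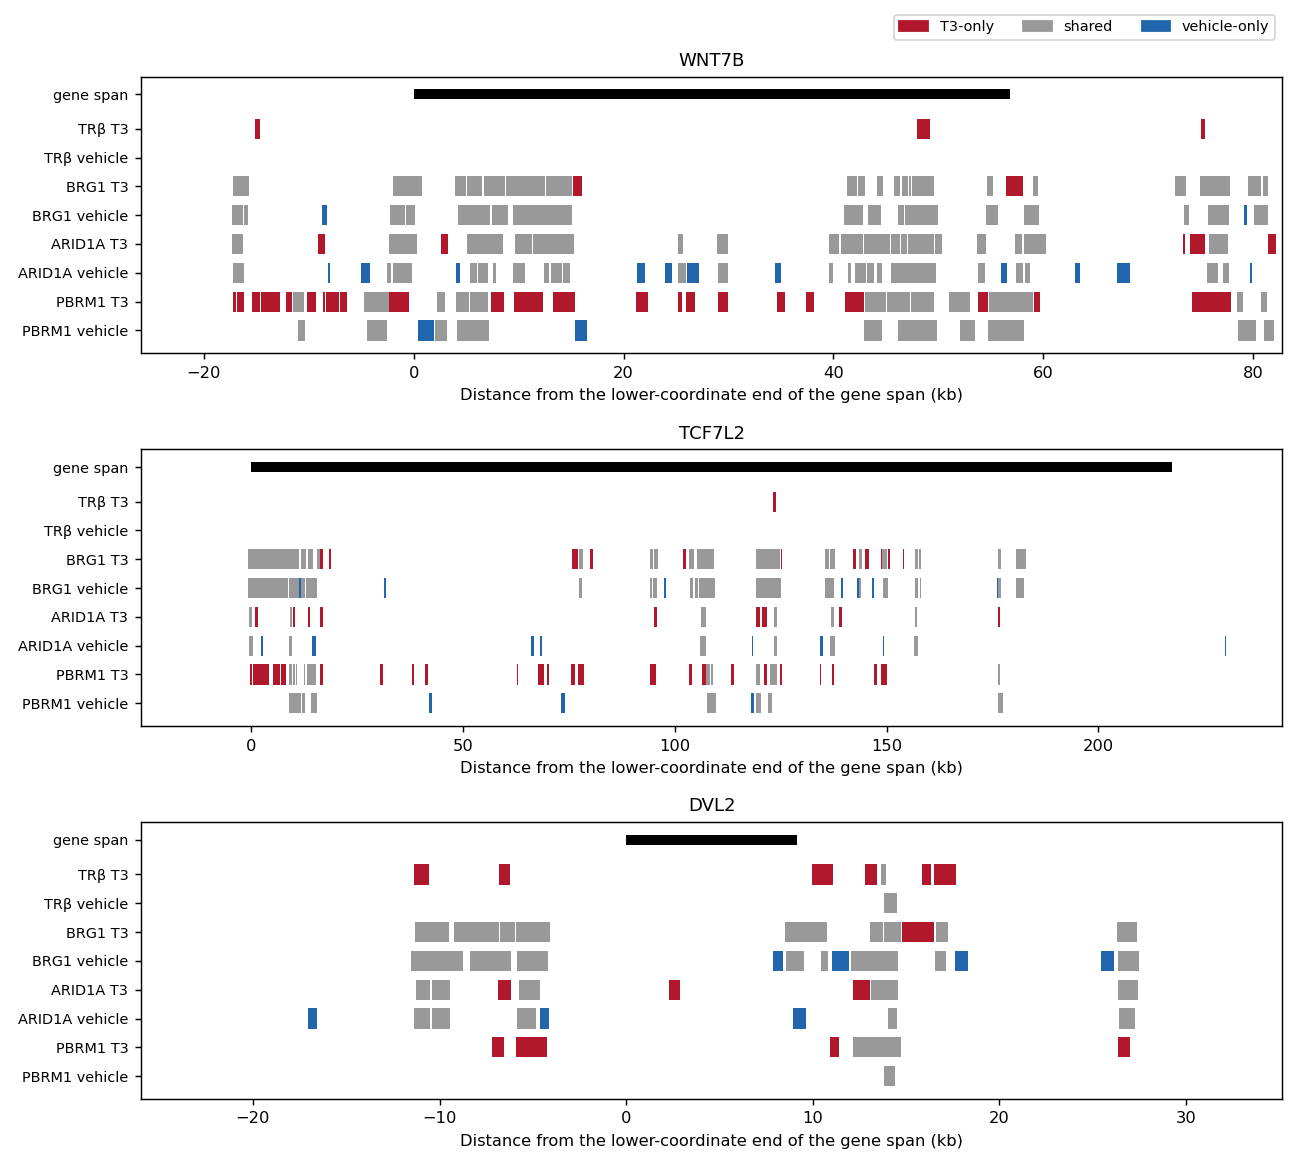
Regions of each list (rows) around WNT7B, TCF7L2 and DVL2, drawn to scale by distance in kb from the end of the gene span with the lower coordinate; the black bar is the gene span, red is T3-only, blue vehicle-only and grey shared. The PBRM1 T3 rows of WNT7B and TCF7L2 hold 36 and 35 regions against 12 and 11 with vehicle, and the 7 TRβ T3 regions of DVL2 all lie outside its span.

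Some WNT genes had little or no PBRM1. PORCN and FZD10 had 0 regions in both lists, PORCN in spite of 7 BRG1 regions with T3 and 8 with vehicle. The next lowest with T3 were GSK3B (0.309 per 100 kb), FZD3 (0.769) and FZD6 (1.19), with 1 region each. SFRP1, LEF1 and FZD9 had PBRM1 regions in the T3 list alone, 2, 3 and 1, with no BRG1 region in the T3 list. CTNNB1 had 2 with T3 and 0 with vehicle, APC had 4 and 1, and AXIN2 had 3 and 3. The 5 highest vehicle-only regions were at WNT7B (chr22:45920756-45922272 with 17.4, and chr22:45935718-45936897 with 11.9), TCF7L2 (chr10:113023497-113024351 with 15.3) and LRP6 (chr12:12273430-12274801 with 13, and chr12:12263120-12263989 with 12.6). LRP6 had 3 PBRM1 regions with T3 and 4 with vehicle, the only WNT gene with fewer in the T3 list.

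At 19 of the 35 WNT genes (36.6% of all genes) all 4 proteins had at least 1 region with T3. These were the same 19 that had a TRβ T3 region, so each of them also had BRG1, ARID1A and PBRM1 in its window. Over all genes, 7326 of the 7882 with a TRβ T3 region had all 4, so this was usual wherever TRβ was listed. Counted by region, 97 of the 227 BRG1 T3 regions overlapped both ARID1A and PBRM1 (42.7%, 36.2 to 49.4), above the 30.6% at other genes, and 73 overlapped neither (32.2%, 26.1 to 38.7), below the 43.3% there. Of the 227, 54 lay at WNT7B and TCF7L2 (23.8%), and these shares were not taken without those genes. ARID1A alone was at 10.1% (14.2% at other genes), PBRM1 alone at 15% (11.9%), and TRβ at 12.8% (9.42%). In the vehicle list, 13.2% of the 265 BRG1 regions overlapped both (9.75% at other genes), 29.4% ARID1A alone (29.5%), 6.79% PBRM1 alone (4.48%) and 50.6% neither (56.3%), and TRβ was at 1.51% (1.43%).

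The 32 promoters gave a like picture on a fixed length. TRβ was listed at 7 with T3 (21.9%; 14.5% of all promoters) and at 1, AXIN1, with vehicle (3.12%; 2.4% of all). BRG1 was at 23 and 22 (54.3% and 58.9% of all), ARID1A at 18 and 17 (46.3% and 41.9%), and PBRM1 at 22 and 7 (53.6% and 18.9%). PBRM1 was listed with T3 and not with vehicle at 15 of the 32 (46.9%; 36.2% of all) and with vehicle and not with T3 at 0 (1.5% of all). AXIN1, TCF7L1, DKK1 and GSK3B, whose promoter sequences are shown above, all had PBRM1 over the promoter with T3, and TCF7L1 and DKK1 had it with vehicle too.

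A further 62 genes of the pathway were counted in the same way. TRβ was listed at 29 of them with T3 (46.8%) and at 5 with vehicle (8.06%), values between those of the 35 genes and of all genes (39.3%) for T3 and below both for vehicle (11.1% of all). BRG1 was at 54 with T3 (87.1%; 79.8% of all genes) and 55 with vehicle (88.7%; 82.8%). ARID1A was at 53 in both conditions (85.5%; 76.0% of all with T3 and 79.5% with vehicle), and PBRM1 at 58 with T3 (93.5%; 78.1%) and 34 with vehicle (54.8%; 44.0%). The 5 with the highest TRβ T3 signal value were KREMEN2, which encodes a receptor for DKK proteins (chr16:2966966-2969421 with 30.8, from 15 and 15.7), PYGO2 (27.5), a partner of beta-catenin through BCL9, CTBP1 (20.2), a co-repressor, CSNK1D (18.7), a casein kinase, and BCL9 itself (18.2). All 5 ranked above FZD7, the highest of the 35. The regions counted for PYGO2 and CSNK1D lay in the flanks, outside the gene spans. These 62 genes had windows of median length 100 kb, against 89.5 kb for the 35 and 74.1 kb for other genes. A longer window can raise the share of genes with a region. Per 100 kb with T3 the 62 genes held 0.681 TRβ, 4.48 BRG1, 3.36 ARID1A and 3.52 PBRM1 regions. At the 20002 protein-coding genes outside the 35 these were 0.615, 3.52, 2.98 and 2.74.

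The cell type could be checked only by occupancy, since listed regions do not measure expression. Of 8 thyroid follicular genes, PBRM1 was listed at 6 with T3 and 3 with vehicle (78.1% and 44.0% of all genes), and BRG1 at 7 and 6 (79.8% and 82.8% of all). These counts were near those of genes in general and say nothing about cell type. PAX8, a thyroid transcription factor, had 27 PBRM1 regions with T3 and 5 with vehicle. All 4 epithelial genes had BRG1 regions in both conditions, as did both endothelial genes and 1 of 2 blood genes. NKX2-1, a transcription factor of thyroid, lung and forebrain, had 0 regions in 7 of the lists and 1 ARID1A region with vehicle.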

How the data were processed

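Peak lists for TRβ, BRG1, ARID1A and PBRM1 with T3 or vehicle were used, 1 per group; the IgG library was not analysed here. Per the submitters' processing notes the tools were CASAVA 1.7, Trim Galore, Bowtie2 and MACS2, on build hg38. No source used here gives their parameters, the part of the IgG library or the depth, so the precision that depth allows is unknown. The lists have the layout of the IDR method per the values in them. The authors' deposited signal value of a region, a peak score with no stated scale, is the sum of its values in 2 library columns, and the deposited −log10 IDR column held rates up to 0.05. A region's interval is the union of its intervals in both libraries. Which column is which numbered replicate is not stated, and 24 summit columns were not used.

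Regions on chromosomes 1 to 22, X and Y were counted per gene window, with 25 kb added to each end of the RefSeq span. That table has no strand or exons, so exons and introns were not told apart, and strand came from the promoter table. A region in the windows of several genes counted for each; shares by class and overlap used each region once. Shares have exact (Clopper-Pearson) 95% intervals over regions, which are not independent of their neighbours. The genes, lists and comparisons were chosen with earlier results of these data known. Sites named are, for each gene, the highest TRβ region per list, and for each remodeler the 5 highest T3-only and vehicle-only regions and the 5 genes with the highest and lowest density with T3; shared regions and other TRβ regions were added after their values were seen. Alternatives were other windows, IDR limits, overlap rules, list lengths and replicate intervals. Overlap and window counts were tested on simulated lists, with 0 wrong. Python 3.11.15, numpy 2.4.6, pandas 2.3.3, scipy 1.17.1 and matplotlib 3.10.9 were used.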

Additional observations from a re-analysis of the deposited data

How the results depend on the processing

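Of 176 alternative values, 153 stayed within 1.5 times the reported count, within the interval of the reported share or, for an excess over other genes, within the error of the share of WNT genes; 23 moved further and 0 reversed. On the gene span alone, 3 WNT genes had a TRβ vehicle region, and the excess over other genes with T3 was 23.2 percentage points for BRG1 and 26.7 for PBRM1. At an IDR of at most 0.01, 1 WNT gene had a TRβ vehicle region (vehicle-only share 0.0%, of 1 region) and 14 a PBRM1 vehicle region; the BRG1 vehicle-only share was 22.1%, the ARID1A T3-only share 51.2% and the PBRM1 T3-only share 84.1%. With a reciprocal overlap of 50%, the T3-only and vehicle-only shares were 54.2% and 61.1% for BRG1, 59.8% and 62.3% for ARID1A, and 84.5% and 40.7% for PBRM1. With a gap of up to 500 bp counted as shared they were 12.3% and 19.2% for BRG1 and 31.7% and 31.6% for ARID1A, and the PBRM1 T3-only share was 62.8%. With lists of equal length, 5 WNT genes had a TRβ T3 region, and the PBRM1 shares were 53.3% (T3-only) and 57.6% (vehicle-only). The TRβ excess over other genes then fell to 0.237 percentage points, against 15 as reported, and is counted among the 153 only because the error of a share of 35 genes is wider than that fall. The TRβ vehicle-only share rose from 40.0% (2 of 5) to 80.0% (4 of 5) with lists of equal length, and equally with a reciprocal overlap of 50%. It too is counted among the 153, because the interval of 2 of 5 regions is wide (5.27 to 85.3). Beyond what each rule does by construction, the cause was not tested. Leaving out WNT7B, TCF7L2 and DVL2, an alternative chosen after seeing the data, gave values within those same limits for all results, but the interval of the PBRM1 T3-only share (65.5 to 80.2) then included the 78.3% at other genes.

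No paired analysis was possible because each group has 1 list, which holds only regions of both libraries and no values for regions absent from it. No list per replicate was at hand, so leaving out a replicate was not run. Unknown depth limits every statement about a region that is missing from a list.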
